A study of Mus musculus with 4 samples.

Results

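Aatk, Wfdc21, Car3 and 9030619P08Rik are 4 of 18193 genes measured in mouse liver, grouped here because they stood clearly lower in livers lacking Baf60a and belong to none of the large metabolic gene families. They were chosen by the measured differences between genotypes, for lying lower in both Baf60a LKO pools, so these differences between genotypes are given as a description, with no test. They are read by 7 of 45037 probe sets, namely 4 for Car3 and 1 for each of the other genes. RNA was read on 4 Affymetrix arrays that cover the mouse genome, 2 with RNA of wild-type (WT) livers and 2 with RNA of livers in which Baf60a was knocked out (Baf60a LKO). BAF60a, encoded by Smarcd1, belongs to SWI/SNF, a complex that remodels chromatin. Both groups were C57BL/6, were given high-fat diet from 6 weeks of age for 10 weeks and were fasted overnight before the liver was taken. Each array carried its own RNA pool. The number and sex of the mice in a pool and the promoter that drives Cre are not given in the sources used here.

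The 4 genes have little in common by function. Aatk encodes apoptosis-associated tyrosine kinase (lemur tyrosine kinase 1), first described in myeloid cells undergoing cell death and studied mostly in neurons, where it acts in endosome traffic with Cdk5 and Rab11. Wfdc21, also called Wdnm1-like, encodes a small secreted protein of the WAP four-disulfide core family, whose members include protease inhibitors such as Slpi, and it is known from fat and liver. Car3 encodes carbonic anhydrase 3, a cytosolic enzyme that hydrates carbon dioxide only weakly and is among the most abundant proteins of adipocytes, hepatocytes of male rodents and slow muscle. The locus 9030619P08Rik is annotated in RefSeq as a transcribed pseudogene and lies on chromosome 15 among Ly6 genes, which encode small cell-surface proteins held by a lipid anchor.

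Values are log2 expression levels after robust multi-array averaging (RMA), 1 per probe set and array. Smarcd1, the targeted gene, read 5.62 and 5.88 in WT and 5.34 and 5.30 in Baf60a LKO, a difference of -0.43 ± 0.14 (SE) that did not pass over all genes (limma, Benjamini-Hochberg adjusted p = 0.410). Whether its probe set lies in the deleted part is not known, so it does not check the genotype. On 4 control probe sets for the Cre recombinase, the Baf60a LKO arrays stood higher than the WT arrays by 0.65 to 3.41, mostly from WT values at background. The hepatocyte markers Alb and Ttr read 13.7 or more on all 4 arrays. The SD of the difference between the WT replicates was 0.33, against 0.21 between the Baf60a LKO replicates. WT replicate 1 stood furthest apart, and WT replicate 2 differed from the Baf60a LKO arrays with an SD of 0.27 and 0.28. Over all genes, 1853 (10.2%) had an unadjusted p under 0.05 by limma. In all, 88 genes (0.484%) passed the threshold of adjusted p under 0.05, of which 45 were lower (0.247%) and 43 higher (0.236%) in Baf60a LKO. As a gauge of background, 39 probe sets for bacterial transcripts were read. Their 95th percentiles were 3.61 and 3.58 in WT and 3.22 and 3.30 in Baf60a LKO. Their medians were 2.49 and 2.36 in WT and 2.34 and 2.28 in Baf60a LKO. The highest 95th percentile, 3.61 on WT replicate 1, is the background gauge used below. Whether the lower background in Baf60a LKO bears on small differences of dim genes was not tested.

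**Figure D1:**
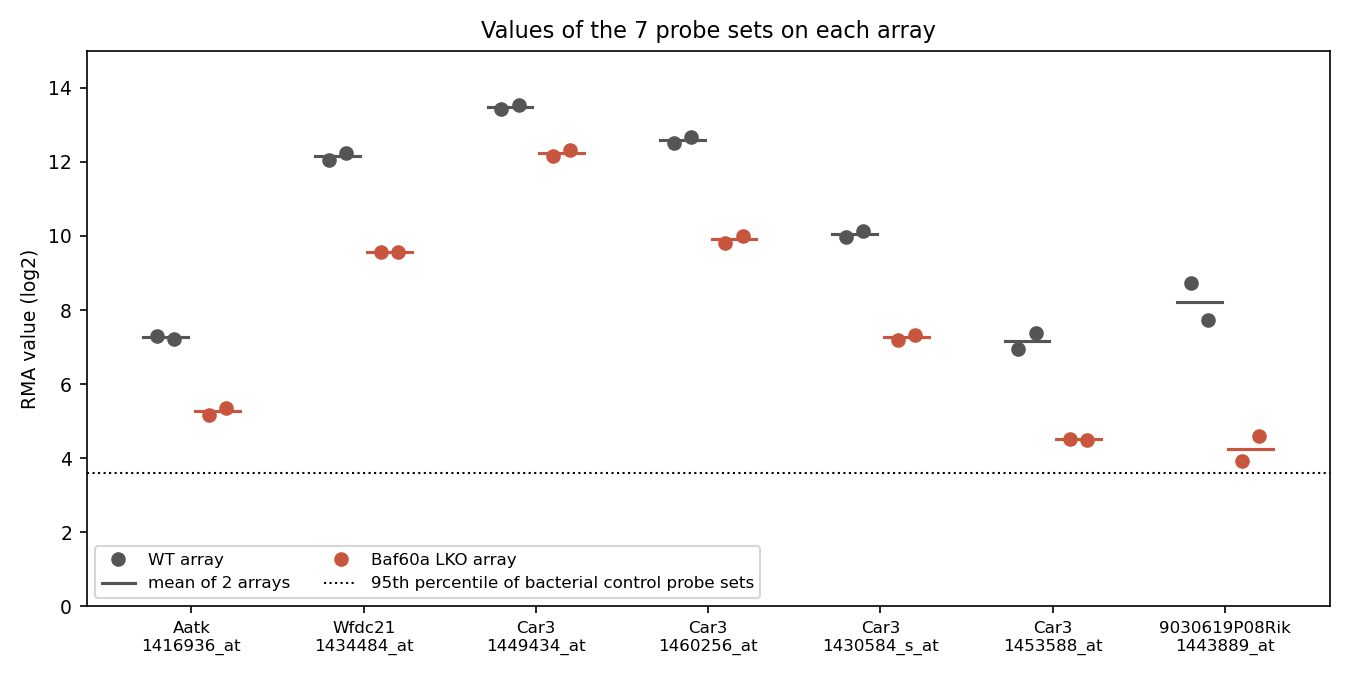
RMA values (log2) of the 7 probe sets that read Aatk, Wfdc21, Car3 and 9030619P08Rik. Points are single arrays, horizontal bars the means of 2 arrays per genotype, and the dotted line the highest 95th percentile of bacterial control probe sets (3.61). On each probe set both Baf60a LKO arrays lie below both WT arrays, and the WT arrays of 9030619P08Rik are spread most widely.

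Both Baf60a LKO arrays lay below both WT arrays on all 7 probe sets, which the choice of genes fixes. That pattern alone is common, since 19.4% of all probe sets show it, while 0.289% show it together with a difference of at least 2-fold. The 4 genes differed in how far they stood below WT. By the brightest probe set of each gene, 9030619P08Rik had the 8th lowest difference of all 18193 genes, Wfdc21 the 19th, Aatk the 29th and Car3 the 58th. The place of Car3 depends on the probe set, since its dimmer probe sets differed by -2.67 to -2.79. In bulk liver RNA, fewer cells of a type and less RNA per cell cannot be told apart.

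The kinase gene Aatk read 7.29 and 7.23 in WT and 5.18 and 5.35 in Baf60a LKO. The WT arrays agreed within 0.07, and the highest Baf60a LKO array lay 1.88 below the lowest WT array. The mean was 7.26 ± 0.05 in WT and 5.26 ± 0.12 in Baf60a LKO (SD, n = 2), a difference of -1.999, or 3.997-fold. Aatk was brighter than most probe sets, with a WT mean above that of 82.7% of probe sets and a Baf60a LKO mean above that of 63.1%. Its Baf60a LKO mean remained 1.65 above the background gauge of 3.61.

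RefSeq places several transcription starts in Aatk, which lies on the minus strand of chromosome 11, and the array does not tell which of them liver uses. The 250 bases before the outermost and the innermost start are shown because these starts lie 29998 bases apart and their sequences differ. Both are printed 5′ to 3′ on the strand of the gene, from RefSeq, build GRCm38.p6, and capitals mark matches to the motifs named after them. The outermost window is chr11:120047153-120047402 and the innermost is chr11:120017155-120017404.
Aatk outermost start: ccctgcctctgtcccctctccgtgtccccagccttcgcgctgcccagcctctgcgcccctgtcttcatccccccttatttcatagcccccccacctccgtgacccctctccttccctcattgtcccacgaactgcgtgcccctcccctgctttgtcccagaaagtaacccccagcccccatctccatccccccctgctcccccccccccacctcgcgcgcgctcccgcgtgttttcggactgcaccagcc
Aatk innermost start: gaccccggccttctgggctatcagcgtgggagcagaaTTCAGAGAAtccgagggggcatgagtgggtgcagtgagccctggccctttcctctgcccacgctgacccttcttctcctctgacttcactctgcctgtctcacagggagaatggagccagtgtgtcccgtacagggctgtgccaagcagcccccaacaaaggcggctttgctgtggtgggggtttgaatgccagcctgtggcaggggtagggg

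Both windows are rich in G and C, at 67.6% for the outermost start and 61.6% for the innermost, against a median of 52.4% over 32851 windows of the same length. Motifs were searched on both strands as exact letters, with N for any base. The STAT motif TTCNNNGAA had 1 match in the innermost window and 0 in the outermost, and 7.02% of all windows held one. For the other motifs searched, both printed windows had 0 matches. These were the nuclear receptor half-site AGGTCA (14.0% of all windows), the E-box CACGTG (6.02%), the C/EBP motif TTGCNNAA (9.56%) and the GC box GGGCGG (32.7%). RefSeq gives 2 more starts, of which 1, 7 bases inside the outermost, had 0 matches to any motif searched. The other, 5371 bases inside the outermost, had 1 E-box in its window, chr11:120041782-120042031. A match is a string of letters and not a binding site.

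The RefSeq span of Aatk also holds the hairpin of miR-338 on the same strand. Its mature forms are shown because Aatk is their host gene, and their levels were not analysed here. They are printed 5′ to 3′ with the seed, bases 2 to 8, in capitals. In GRCm38.p6, miR-338-3p lies at chr11:120014781-120014802 and miR-338-5p at chr11:120014816-120014837, both on the minus strand.
mmu-miR-338-3p: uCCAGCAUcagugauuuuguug
mmu-miR-338-5p: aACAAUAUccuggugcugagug

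No difference passed for the relatives of Aatk among the lemur tyrosine kinase genes. Lmtk2 differed by -0.20 ± 0.11 and Lmtk3 by -0.10 ± 0.15 (SE, 2 arrays per group). Of the 8 measured relatives and binding partners of Aatk, 0 passed over all genes by limma, and 0 had an unadjusted p under 0.05, against 10.2% of all genes. Their median difference was 0.06, against 0.00 over all genes, and -0.0012 and -0.02 after quantile and loess normalization. Slc12a2, a chloride cotransporter gene, differed by 0.29 ± 0.14, Rab11a, the small GTPase gene of recycling endosomes, by 0.21 ± 0.12 (-0.07 on its dimmer probe set), and Cdk5, the kinase gene, by 0.06 ± 0.12. Of the 13 measured regulators of apoptosis, the process for which Aatk is named, 0 passed by limma and 1 had an unadjusted p under 0.05, near the share of all genes. The largest difference was that of Bid, a pro-apoptotic BCL2 family member, at 0.45 ± 0.14 (adjusted p = 0.404). Mcl1, an anti-apoptotic member, differed by 0.37 ± 0.16, with other probe sets from -0.20 to 0.92, and the median of the list was 0.03 (-0.0034 after quantile normalization).

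Wfdc21 was one of the bright genes of WT liver. It read 12.1 and 12.2 in WT and 9.58 on both Baf60a LKO arrays. The Baf60a LKO arrays differed by 0.0028 and the WT arrays by 0.19, with 2.48 between the groups. The mean was 12.2 ± 0.14 in WT and 9.58 ± 0.0020 in Baf60a LKO (SD, n = 2), a difference of -2.57, or 5.96-fold. In WT it ranked 182nd of 18193 genes by level on the array, and its Baf60a LKO mean still lay above that of 94.8% of probe sets. Levels of different probe sets depend on their probes as well as on RNA, so these ranks are only a guide to abundance.

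Within the WAP four-disulfide core family, the gene next in size of difference went the other way. Wfdc2, which encodes the secreted epithelial protein HE4, read 7.57 and 7.79 in WT and 9.23 and 9.26 in Baf60a LKO. It rose 2.96-fold, by 1.56 ± 0.13 (SE, limma, Benjamini-Hochberg adjusted p = 0.0181), and was higher on both Baf60a LKO arrays than on either WT array. With 1 array left out its difference was 1.45 to 1.67, with adjusted p of 0.108 to 0.298, and with a replicate block adjusted p was 0.0753. The values of Wfdc2 kept their sign and call under the 3 other normalizations (1.48 to 1.60).

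Of the 15 measured family members other than Wfdc21, Wfdc2 was the 1 that rose, 0 fell and 14 did not pass. Of all genes, 0.236% rose and 0.247% fell by the same threshold. At an unadjusted p under 0.05 by limma there were 2 of the 15, 1 in each direction, against 10.2% of all genes. Of the 15, 12 had a negative difference, and 5 had both Baf60a LKO arrays below both WT arrays, a pattern shown by 19.6% of all genes. After quantile or loess normalization 9 of the 15 were below 0, and the median, -0.13 as deposited, was -0.06 and -0.07. Wfdc1, a secreted growth inhibitor, differed by -0.59 ± 0.15 (adjusted p = 0.318) and Wfdc12 by -0.38 ± 0.15. Slpi, the secretory leukocyte protease inhibitor, differed by -0.18 ± 0.15. Wfdc17 and Wfdc18, which precede Wfdc21 directly on chromosome 11, differed by -0.05 ± 0.15 and -0.03 ± 0.12.

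Car3 was read by 4 probe sets that covered a wide range of brightness. On the brightest, 1449434_at, it read 13.4 and 13.5 in WT and 12.1 and 12.3 in Baf60a LKO, a difference of -1.24, or 2.36-fold. The next, 1460256_at, read 12.5 and 12.7 in WT and 9.82 and 10.0 in Baf60a LKO, a difference of -2.68, or 6.40-fold. Replicates agreed within 0.20 on both probe sets, and the groups lay 1.09 apart on the first and 2.51 apart on the second.

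The dimmer pair gave differences like that of the second. On 1430584_s_at Car3 read 9.97 and 10.1 in WT and 7.19 and 7.33 in Baf60a LKO, a difference of -2.79, or 6.93-fold. On 1453588_at it read 6.96 and 7.39 in WT and 4.53 and 4.49 in Baf60a LKO, a difference of -2.67, or 6.35-fold. These 3 probe sets thus differed by at most 0.13 in the size of the difference although their WT levels spanned 5.42. The Baf60a LKO mean of 1453588_at lay only 0.89 above the background gauge, so its fold is less well measured. The brightest probe set stood 1.43 to 1.55 short of them. The replicate SD on the 4 probe sets, pooled over groups, was 0.11 to 0.21.

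The choice of probe set therefore sets the size given for Car3. Its brightest probe set lay near the top of the array, with a WT mean of 13.5 above that of 99.96% of probe sets, where the highest WT mean was 14.3. Of 68 probe sets with a WT mean over 13, it had the 3rd lowest difference, behind Mup3, a major urinary protein gene, at -3.22, and 1 probe set with no single gene name at -2.88. Whether the brightness of 1449434_at bears on its smaller difference was not tested.

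**Figure D2:**
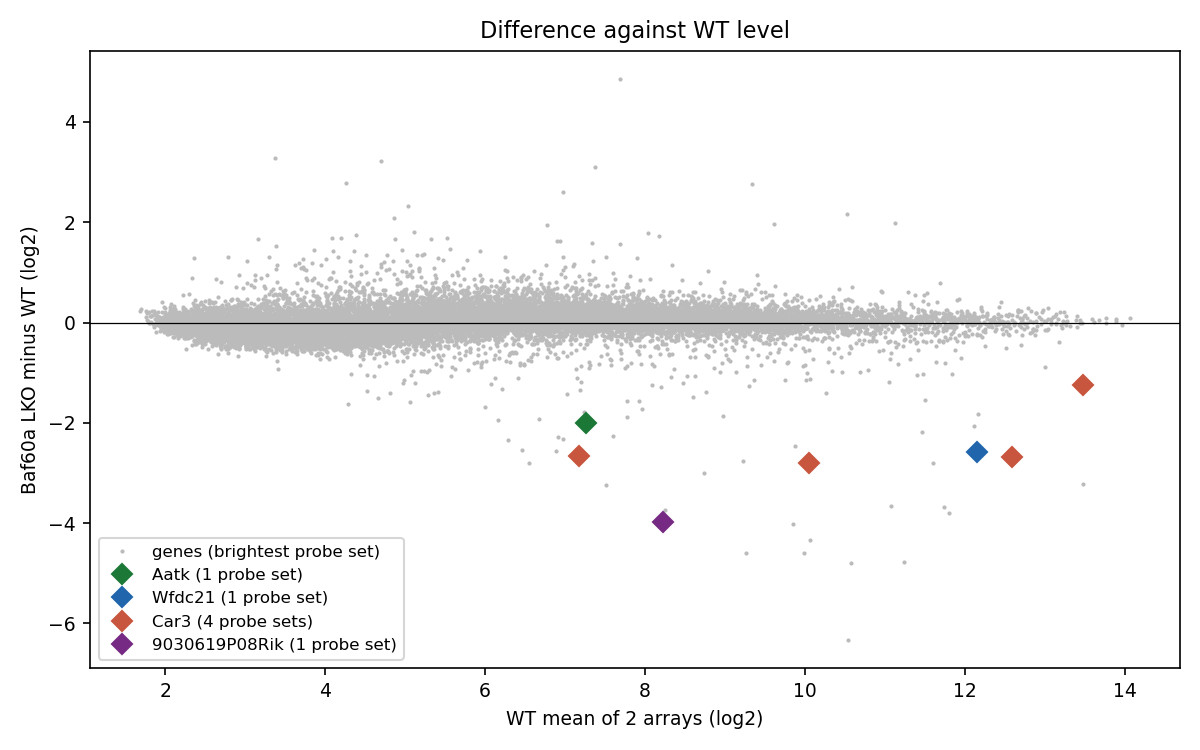
Difference between genotypes (Baf60a LKO minus WT, log2) against the WT mean of 2 arrays (log2). Grey points are 18193 genes by their brightest probe set, and diamonds are the 7 probe sets of the 4 genes. Of the 4 diamonds of Car3, 3 lie between -2.79 and -2.67 at WT means from 7.17 to 12.6, while the brightest lies at -1.24.

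No measured relative of Car3 among the carbonic anhydrase genes passed the threshold. Of 15 measured, 0 passed over all genes by limma and 4 had an unadjusted p under 0.05 (10.2% of all genes), 2 lower and 2 higher. The median was -0.07, with 3 genes lower and 3 higher on both Baf60a LKO arrays, against 19.6% and 22.8% of all genes. Car2, a fast cytosolic isoform and the measured gene next to Car3 on chromosome 3, read 6.45 and 6.59 in WT and 7.20 and 7.05 in Baf60a LKO. Its difference of 0.61 ± 0.13 did not pass (limma, adjusted p = 0.215) and kept its sign at 0.50 to 0.64 under other normalizations. Car1, on the other side of Car3, differed by 0.13 ± 0.18 and Car13 by 0.04 ± 0.12.

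Other isoforms known from liver did not pass either. Car5a, the mitochondrial isoform that serves urea and glucose synthesis, differed by -0.03 ± 0.21, and its relative Car5b by 0.53 ± 0.15 (adjusted p = 0.358) and by 0.99 on its dimmer probe set. Car14, a membrane isoform of hepatocytes, differed by -0.28 ± 0.14. Car8, which lacks enzyme activity, differed by 0.09 ± 0.15 and on its dimmer probe sets by 0.42 and 0.33.

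The pseudogene 9030619P08Rik stood lowest against WT of the 4 and was the most variable. It read 8.72 and 7.72 in WT and 3.92 and 4.59 in Baf60a LKO. The gap between replicates was 0.99 in WT and 0.67 in Baf60a LKO, and the groups lay 3.13 apart. The mean was 8.22 ± 0.70 in WT and 4.25 ± 0.48 in Baf60a LKO (SD, n = 2), a difference of -3.97, or 15.6-fold. Taken between single arrays, the difference ran from -3.13 to -4.80. Its Baf60a LKO mean lay 0.64 above the background gauge, so the low end of the fold is poorly measured. That gauge comes from WT replicate 1, and the Baf60a LKO arrays had 95th percentiles of 3.22 and 3.30. It is read by 1 probe set, and its probes may share sequence with Ly6 genes, which was not checked.

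No measured relative of 9030619P08Rik in the Ly6 and uPAR domain family passed the threshold. Of 25, 0 passed over all genes by limma and 2 had an unadjusted p under 0.05 (10.2% of all genes), both lower. Differences were below 0 for 20 of the 25 (18 after quantile or loess normalization), with a median of -0.14, and 10 had both Baf60a LKO arrays below both WT arrays, where 19.6% of all genes did. Many were dim, with both group means of 12 of the 25 under the background gauge. The bacterial controls also stood lower in Baf60a LKO. Ly6d read 5.51 and 5.33 in WT and 4.77 and 4.70 in Baf60a LKO, the largest difference at -0.69 ± 0.13 (limma, adjusted p = 0.156). Lypd2 differed by -0.43 ± 0.17, Gpihbp1, which anchors lipoprotein lipase on capillaries, by -0.36 ± 0.11 (adjusted p = 0.409), and Ly6e, a broadly expressed member, by 0.16 ± 0.11. Ly6a and Ly6c1 were not analysed here.

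**Figure D3:**
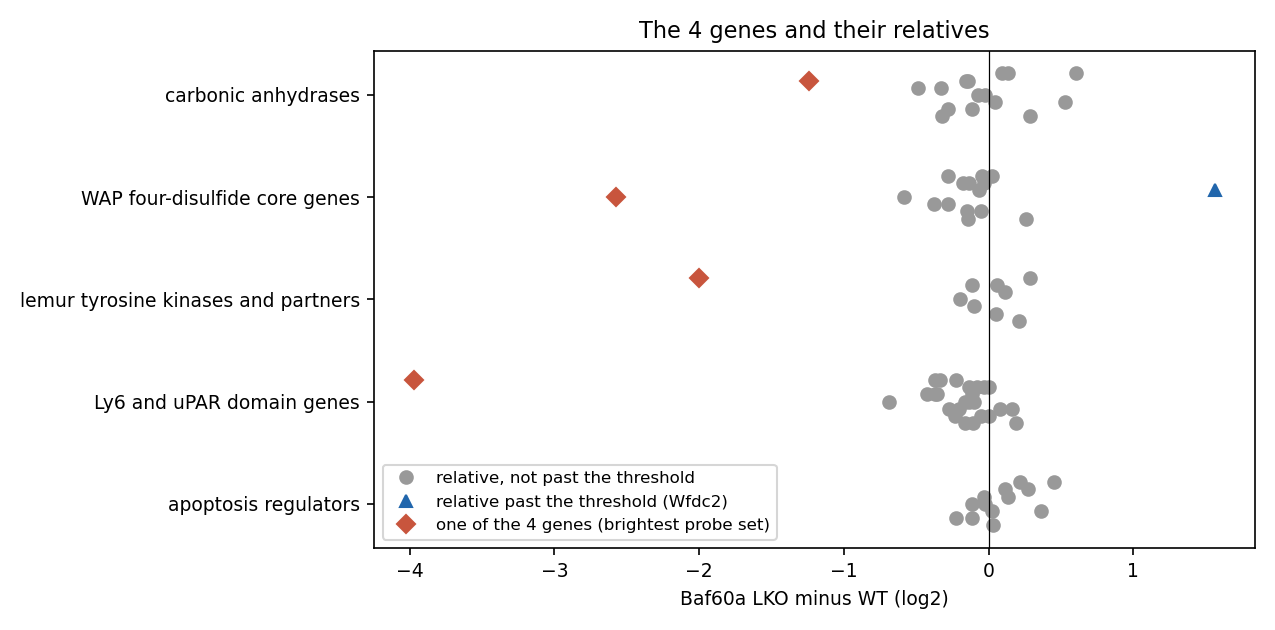
Difference between genotypes (Baf60a LKO minus WT, log2) for the 4 genes and their measured relatives or partners, by list. Each point is 1 gene by its brightest probe set, with vertical offsets for legibility. Diamonds mark Car3, Wfdc21, Aatk and 9030619P08Rik, and the triangle marks Wfdc2 at 1.56, the 1 relative of 76 past the threshold.

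The genes beside each of the 4 on its chromosome were set against it, counting the 3 nearest measured genes on each side in RefSeq order. Of these 24 neighbours, 0 passed over all genes by limma and 4 had an unadjusted p under 0.05 (10.2% of all genes). Their median difference was -0.06, with 7 lower and 3 higher on both Baf60a LKO arrays, against 19.6% and 22.8% of all genes. Beside Aatk, Baiap2, which encodes an actin-regulating scaffold, differed by -0.17 ± 0.15 and Cep131, a centrosomal protein gene, by -0.06 ± 0.12. All 6 neighbours of Aatk lay between -0.17 and 0.10. Beside Wfdc21, Heatr6 differed by 0.31 ± 0.12 (adjusted p = 0.487) and Ccl4, a chemokine gene, by -0.12 ± 0.16. Beyond Car2, A930001A20Rik differed by -0.55 ± 0.18 (adjusted p = 0.422). The 6 neighbours of 9030619P08Rik, 5 of them Ly6 or uPAR domain genes, were all below 0, from -0.36 for Gpihbp1 to -0.10 for Ly6h. The sign held under the 3 other normalizations, which rework the same 4 arrays and so are not independent checks. For Ly6h, Ly6g2 and Zfp41 the difference was smaller than its SE of 0.11 to 0.12. It was larger than its SE for Gpihbp1, Ly6i and Ly6f. Both group means of Ly6h (3.18 in WT and 3.08 in Baf60a LKO) and Ly6f (3.33 and 3.10) lay under the background gauge. Ly6i lay on both sides of it (3.77 and 3.49), and the other neighbours lay above it. Other annotated genes with no value lie between some of the 4 genes and their neighbours, up to 14 of them between 9030619P08Rik and Ly6i.

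**Figure D4:**
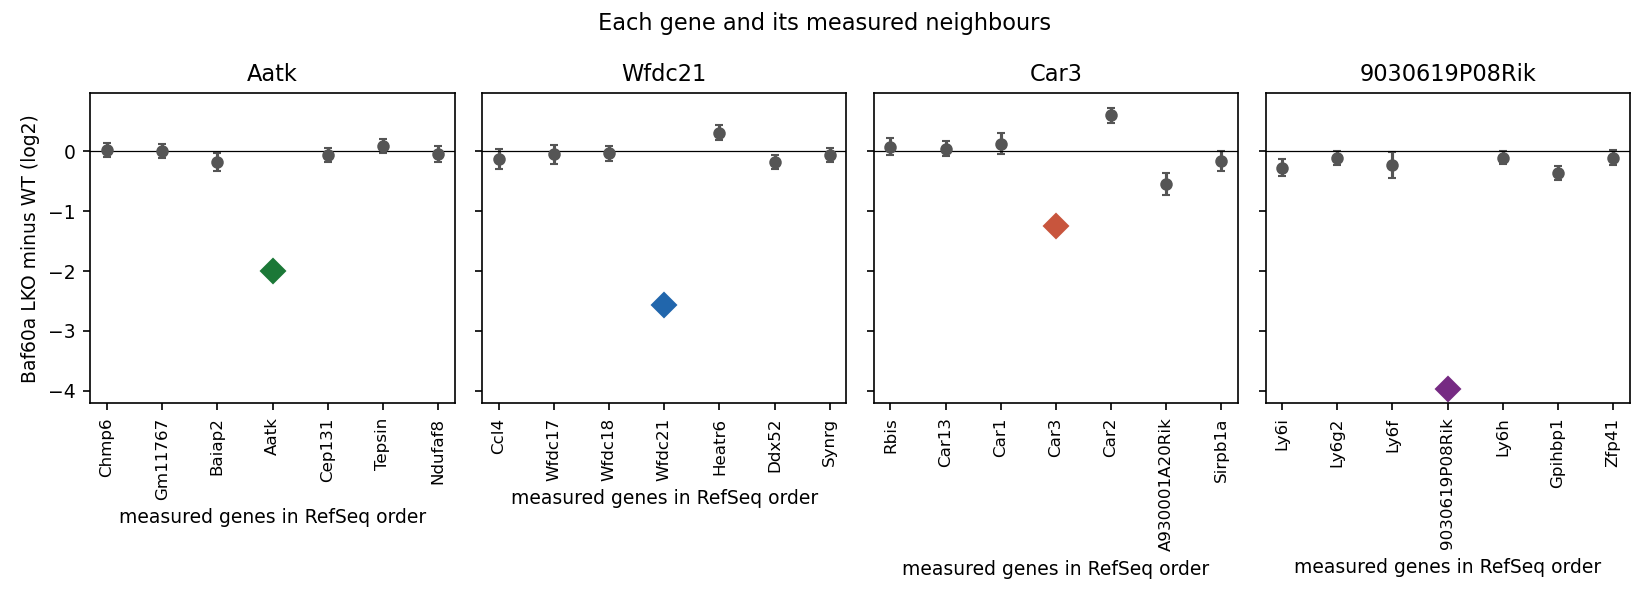
Difference between genotypes (Baf60a LKO minus WT, log2) for each of the 4 genes (diamonds) and the 3 nearest measured genes on each side in RefSeq order. Circles are neighbours with the SE of the limma fit (2 arrays per group), drawn at equal steps and not at genomic distance. The neighbours lie between -0.55 and 0.61, and the diamonds between -1.24 and -3.97.

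The 4 genes were compared by their profiles over the 4 arrays, using the root mean square distance between log2 values after subtracting each probe set's mean. With 4 arrays in 2 groups, this distance mostly reflects the size of the difference between genotypes. Wfdc21 lay within 0.09 to 0.12 of the 3 dimmer Car3 probe sets, as close as those were to each other (0.06 to 0.13), and 0.67 from the brightest. Aatk lay 0.31 from Wfdc21. The profile of 9030619P08Rik lay 0.74 or more from every other probe set of the 4 genes.

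Over all genes, the profiles closest to Aatk were those of Tpm2, a tropomyosin gene (distance 0.10), Cyp4a14, a fatty acid hydroxylase gene (0.13), and Mogat1, a gene of triglyceride synthesis (0.17). Closest to Wfdc21 were Slc39a4, a zinc importer gene (0.10), Themis, a T cell signalling gene (0.14), and Pparg, which encodes the lipogenic receptor PPARgamma (0.19). By its brightest probe set, Car3 lay closest to Kyat3, a kynurenine aminotransferase gene (0.06), Slc43a1, an amino acid transporter gene (0.10), and Fitm1, a lipid droplet gene (0.10). Closest to 9030619P08Rik were Slco1a4, an organic anion transporter gene (0.33), and the cytochrome P450 genes Cyp2c50 (0.38) and Cyp2b9 (0.41). Each gene was represented here by its brightest probe set. Over 4 probe sets each, the difference ran from -2.08 to -0.65 for Tpm2 and from -2.32 to 0.02 for Themis.

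Markers of other cell types in which these genes are known were read beside them. For adipocytes, which express Car3 and Wfdc21, 0 of 8 measured markers passed by limma and 2 had an unadjusted p under 0.05 (10.2% of all genes). Of the 8, 7 were below 0, with a median of -0.35. Their summed linear signal was 354 and 459 in WT and 303 and 311 in Baf60a LKO. That sum weighs the brightest markers most, here Fabp4, a fatty acid binding protein gene (-0.31 ± 0.20), Cidec and Lipe. The lipase gene Lipe was the 1 marker not below 0, at 0.04 ± 0.15. Cidec, a lipid droplet gene that fatty liver also expresses, had the largest difference at -1.11 ± 0.26 (adjusted p = 0.267). The defining marker Adipoq read 2.35 to 2.49 on the 4 arrays, under the background gauge, and differed by -0.05 ± 0.12. For skeletal muscle, which expresses Car3, 0 of 11 markers passed by limma (0 at an unadjusted p under 0.05), with a median of -0.15. After quantile and loess normalization the median was -0.07 and -0.08, with 10 of the 11 below 0 in each case. Both group means of 5 of the 11 markers lay under the background gauge. The summed linear signal of the 11 was 171 and 142 in WT and 138 and 139 in Baf60a LKO. Ckm, the muscle creatine kinase gene, read 4.14 to 4.60.

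Among the 7 measured neural markers, listed because Aatk is mostly studied in neurons, 0 passed by limma and 2 had an unadjusted p under 0.05, 1 in each direction, with a median of -0.14 and 5 below 0. Syt1, a synaptic vesicle gene, differed by 0.88 ± 0.13 (adjusted p = 0.101) and Mag, a myelin gene, by -0.40 ± 0.15 (adjusted p = 0.470). Snap25, also of synaptic vesicle release, read 1.99 in WT and 2.00 in Baf60a LKO on average. The summed signal of the list was 369 and 333 in WT and 506 and 431 in Baf60a LKO, and without Syt1, left out after its values were seen, it was 204 and 166 in WT and 175 and 149 in Baf60a LKO. Of 8 neutrophil markers and 9 macrophage and Kupffer cell markers, 0 and 0 passed by limma (1 and 0 at an unadjusted p under 0.05), with medians of 0.26 and 0.09, the latter -0.0089 and -0.0096 after quantile and loess normalization. Summed signals were 164 and 214 in WT against 235 and 292 in Baf60a LKO for neutrophils, and 4575 and 5571 against 5450 and 5071 for macrophages. Of 4 red cell markers, 0 passed by limma (1 at an unadjusted p under 0.05), with a median of -0.04 and summed signals of 776 and 750 against 814 and 790. Of 9 hepatocyte markers, 0 passed (0 at an unadjusted p under 0.05), with a median of 0.07 and a range of -0.34 to 0.21. The part of these cell types in the differences of Aatk, Wfdc21, Car3 and 9030619P08Rik was not tested.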

How the data were processed

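Liver RNA of 2 WT and 2 Baf60a LKO pools was measured on 4 arrays. The authors deposited 1 log2 value per probe set and array, and the submitters' processing notes list RMA, affy and limma without version numbers. Folds of dim genes can be understated by RMA, and detection calls were not analysed here. Of 45101 probe sets, 64 controls were left out. The platform annotation gave 34945 of the rest 1 symbol, 932 several and did not list 9160, and 34741 symbols were matched to RefSeq of GRCm38.p6 by Entrez number. No build is named for the values, so RefSeq served for names, gene order and sequences.

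Each gene was represented by its brightest probe set over the 4 arrays (18193 genes) and fitted with limma 3.58.1 in R 4.3.3 (lmFit, eBayes), 2-sided, with Benjamini-Hochberg adjustment. The fit had 2 residual and 3.54 prior degrees of freedom and was tested on simulated data. Replicates are RNA pools, so p-values reflect the spread between pools. The arrays hold no read depth, and their number limits the precision. Figures used matplotlib 3.10.9 in Python 3.11.15. The 4 genes, 5 lists of relatives and partners (96 genes besides the 4, 76 measured) and 7 lists of cell type markers were chosen with earlier results of these data known. Named genes are the 4, fixed close relatives, called relatives, the 2 largest uncalled differences of each list of relatives, the neighbours and the 3 closest profiles, and markers chosen after their values were seen. Same-numbered replicates were checked for pairing.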

Additional observations from a re-analysis of the deposited data

Results flagged for a closer look

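Control probe sets for the Cre recombinase, which no comparison of genes used, read higher in both Baf60a LKO arrays than in both WT arrays. The difference was 3.41 on AFFX-r2-P1-cre-3_at, from 2.80 and 2.48 in WT to 5.87 and 6.22 in Baf60a LKO, and 2.08 on AFFX-CreX-3_at. On AFFX-r2-P1-cre-5_at and AFFX-CreX-5_at it was 1.26 and 0.65. The WT values lay under 3.61, the highest 95th percentile of the bacterial controls, except 3.91 for WT replicate 1 on AFFX-CreX-3_at, and AFFX-CreX-5_at lay under it on all 4 arrays, at 2.04 to 2.90. The sizes are therefore differences from background and not folds of a measured level.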

How the results depend on the processing

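All 7 probe sets kept both Baf60a LKO arrays below both WT arrays under 3 other normalizations, the order for which the genes were chosen. Leaving out an array cannot undo that order, so only the size of the difference was compared there. With 1 array left out, the difference ran from -2.08 to -1.91 for Aatk, -2.67 to -2.48 for Wfdc21, -1.33 to -1.15 for the brightest Car3 probe set and -4.46 to -3.47 for 9030619P08Rik. Cyclic loess gave Aatk -2.09, and the mean of its probe sets gave Car3 -2.34, as 3 of them had a larger difference. The number of genes called by limma was 142 after cyclic loess, 148 with array medians subtracted, 216 with a trended and robust eBayes and 19 with a replicate block. It was 0 to 17 with 1 array left out, namely 0 when WT replicate 1 was dropped (with 1630 genes at an unadjusted p under 0.05), 3 for WT replicate 2, and 10 and 17 for Baf60a LKO replicates 1 and 2. Dropping an array leaves 1 pool in a group, whose spread is taken from the other group, and fewer degrees of freedom. Of the relatives, 0 were called with any 1 array left out (4 to 25 at an unadjusted p under 0.05) and 0 with a replicate block (12), against 1 otherwise. Of the neighbours, 0 were called under all 12 alternatives (1 to 6 at an unadjusted p under 0.05). The deviations of same-numbered replicates correlated at 0.15 over probe sets, and with 2 pools per group and no label that ties the numbers, they share only a number. Baf60a LKO values near background may limit the fold of 9030619P08Rik, and detection calls were not analysed.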
